A study of Mus musculus with 8 samples.

Results

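The C/EBP family was followed in mouse bone marrow monocytes and their progenitors through its 6 genes, Cebpa, Cebpb, Cebpd, Cebpe, Cebpg and Cebpz, taken by name from a table of 13388 genes. All 6 were in the table and all 6 passed the filter on low values. RNA was sequenced from 8 libraries, in 4 groups of 2: cMoPs (common monocyte progenitors) on OP9-DLL1, cMoPs on OP9, Ly6C+ classical monocytes on OP9-DLL1 and Ly6C+ classical monocytes on OP9. All cells were sorted from the bone marrow of wild type mice and cocultured for 6 h. OP9 is a stromal line derived from mouse bone marrow, and OP9-DLL1 is its derivative that presents DLL1, a ligand of Notch receptors. The age of the mice is not given in the labels. The labels also do not say if both libraries of a group trace to different mice or dishes: p-values here reflect only sample-to-sample spread, possibly technical.

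C/EBP proteins are basic leucine zipper (bZIP) transcription factors that bind DNA as dimers, with each other or with related bZIP proteins. In mouse bone marrow, C/EBPα is needed to form granulocyte and monocyte progenitors, C/EBPβ serves inflammatory gene expression and the survival of Ly6C- monocytes, and C/EBPε drives the late steps of granulocyte maturation. Cebpz stands apart: its product is named for binding a CCAAT box, has no leucine zipper, and belongs to the nucleolar proteins that assemble the large ribosomal subunit.

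The coordinates that follow are on GRCm38, the assembly mm10 denotes, from GENCODE M21. Cebpa (ENSMUSG00000034957, chr7:35119293-35121928, plus strand) is a gene of 1 exon and lies 62719 bases from Cebpg (ENSMUSG00000056216, chr7:35046422-35056573, minus strand), which has 3 exon blocks. Cebpb (ENSMUSG00000056501, chr2:167688915-167690418, plus strand) and Cebpd (ENSMUSG00000071637, chr16:15887286-15891031, plus strand) also have 1 exon block each. Cebpe (ENSMUSG00000052435, chr14:54710360-54712174, minus strand) has 2 exon blocks and Cebpz (ENSMUSG00000024081, chr17:78919006-78937066, minus strand) has 16.

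RefSeq promoter sequences (GRCm38.p6) matched 3 of the 6 genes. The 250 bases before the RefSeq start are printed for all 3 genes that had one. Cebpa and Cebpg are neighbours whose RNA differed in pattern, and Cebpb was the member whose level differed most between the cell types. The Cebpg window reaches down to 35056567, inside the gene end of 35056573 given above from GENCODE M21. Capitals mark matches to the motifs searched on both strands.
Cebpa, chr7:35119043-35119292, plus strand: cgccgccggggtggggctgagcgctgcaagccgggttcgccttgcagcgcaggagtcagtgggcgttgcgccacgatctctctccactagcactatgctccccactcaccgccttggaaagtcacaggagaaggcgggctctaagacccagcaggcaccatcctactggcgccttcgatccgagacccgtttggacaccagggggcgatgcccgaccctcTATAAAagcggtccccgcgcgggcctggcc
Cebpb, chr2:167688665-167688914, plus strand: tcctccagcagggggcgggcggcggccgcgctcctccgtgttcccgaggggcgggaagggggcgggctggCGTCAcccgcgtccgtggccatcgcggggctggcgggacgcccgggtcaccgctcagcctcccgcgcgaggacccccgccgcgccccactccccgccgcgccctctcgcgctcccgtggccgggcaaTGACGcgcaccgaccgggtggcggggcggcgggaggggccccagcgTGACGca
Cebpg, chr7:35056567-35056816, minus strand: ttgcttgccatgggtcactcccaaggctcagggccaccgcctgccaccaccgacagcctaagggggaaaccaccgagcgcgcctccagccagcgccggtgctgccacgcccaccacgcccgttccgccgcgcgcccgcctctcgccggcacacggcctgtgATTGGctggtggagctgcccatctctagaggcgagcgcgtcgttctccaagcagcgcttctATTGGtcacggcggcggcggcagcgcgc
The search covered the C/EBP recognition sequence TTGCNNAA, the cAMP response element half-site TGACG, the core TGGGAA bound by the Notch effector RBPJ, the TATA box TATAAA and the CCAAT box. Cebpa held 1 TATA box, 30 to 25 bases before the start, a motif found in 12.4% of 32841 promoter windows of the same length. Cebpb held 3 half-sites TGACG, beginning 180, 53 and 7 bases before the start, a motif found in 17.8% of the windows. Cebpg held 2 CCAAT boxes on the opposite strand, beginning 89 and 28 bases before the start, a motif found in 33.9% of the windows. These letters held no match to TTGCNNAA, which 9.57% of the windows held, or to TGGGAA, which 21.6% held. The Cebpb window was 81.6% G and C, a share reached by 0.746% of all windows, against 66.4% for Cebpa and 70.8% for Cebpg.

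The libraries held between 47316323 and 62459962 reads in genes of the table, and the members had 226 to 6054 reads in a library. Progenitor markers followed the labels. The summed level of 9 progenitor genes was 19155 to 22536 CPM (reads scaled to the library's size) on OP9-DLL1 and 15224 to 18088 CPM on OP9 in cMoPs. Monocytes had 631 to 689 CPM of it on OP9-DLL1 and 341 to 799 CPM on OP9. Kit, a receptor of progenitors, was at 4.70 to 8.97 CPM in cMoP libraries and at 0 to 0.272 CPM in monocyte libraries. Hes1, a target gene of Notch, averaged 3.02 ± 0.15 CPM in cMoPs on OP9-DLL1 against 0.0409 ± 0.0062 CPM in cMoPs on OP9 (SD, n = 2 each). In monocytes it averaged 11.5 ± 0.3 CPM on OP9-DLL1 against 0.0301 ± 0.0100 CPM on OP9. The 2 libraries of monocytes on OP9 stood furthest apart: 1445 genes differed more than 2-fold between them, against 724 to 804 in the other groups.

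**Figure D1:**
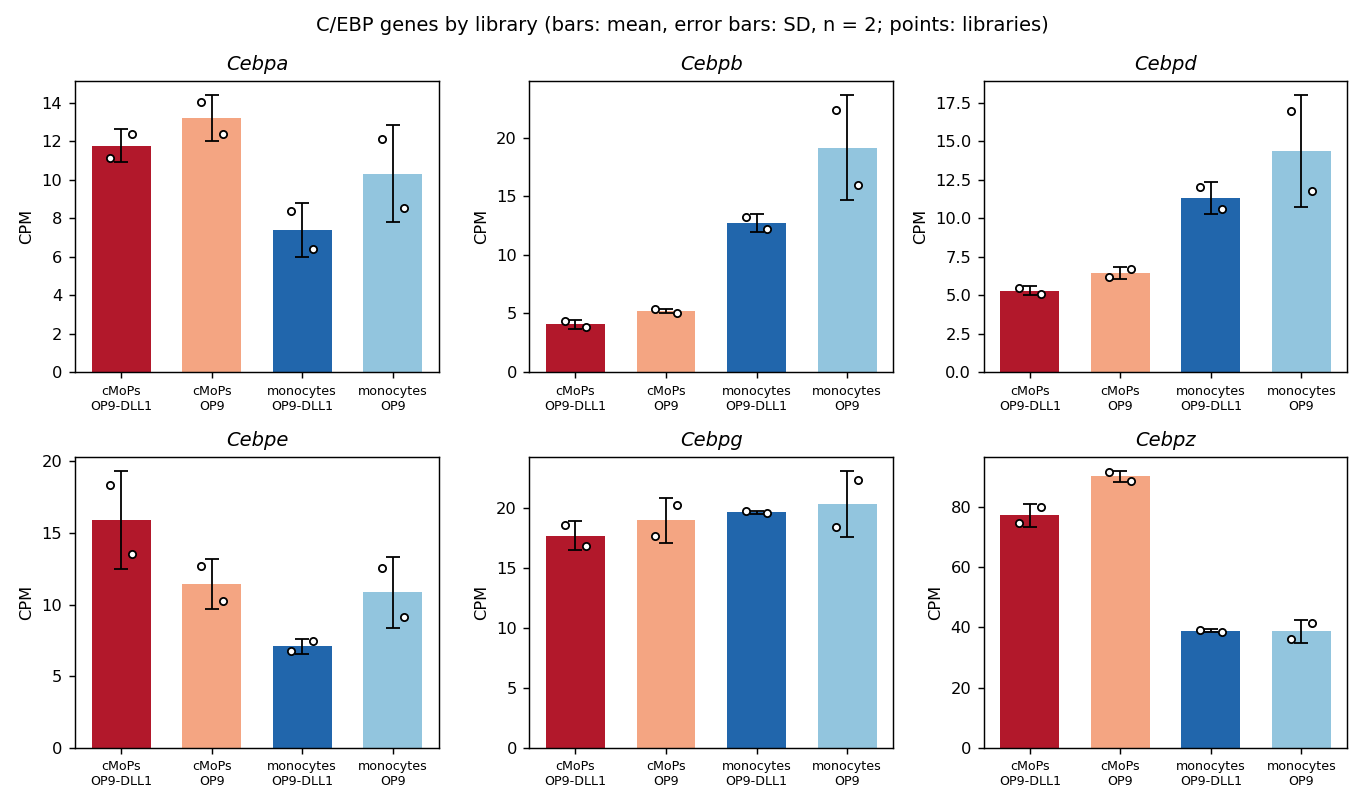
Level of each C/EBP gene in CPM (y axis, from 0, own scale in each panel) in the 4 groups, cMoPs left of monocytes; bars are means, error bars SD and points the 2 libraries. Cebpb and Cebpd were highest in monocytes and Cebpz in cMoPs, while Cebpg lay between 16.8 and 22.3 CPM in all 8 libraries.

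Cebpb and Cebpd were lower in cMoPs than in monocytes, and Cebpz was higher, on either stroma. Cebpa and Cebpe were higher in cMoPs on OP9-DLL1, and Cebpg met the threshold on neither stroma. On OP9-DLL1, 3 of 6 members were higher and 2 lower in cMoPs at an adjusted p under 0.05 (limma-trend, Benjamini-Hochberg over 13374 genes). On OP9, 1 was higher and 2 were lower. Most genes differed between these cell types: 57.4% of all genes passed on OP9-DLL1 (28.2% higher and 29.2% lower) and 56.5% on OP9 (28.8% higher and 27.7% lower). Read against these shares, the counts of 5 and 3 of 6 are no result about the family. The members' median log2 fold change, cMoPs over monocytes, was 0.26 on OP9-DLL1 and -0.01 on OP9, against -0.01 and 0.01 over all genes. CPM values are shares of a library, and in bulk RNA fewer cells of a type and less RNA per cell cannot be told apart.

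Cebpb encodes C/EBPβ. It had 4.32 and 3.81 CPM in cMoPs on OP9-DLL1 and 13.2 and 12.2 CPM in monocytes on OP9-DLL1. On OP9 it had 5.33 and 5.06 CPM in cMoPs and 22.3 and 15.98 CPM in monocytes. All 4 cMoP libraries lay below all 4 monocyte libraries. Within a stroma, the cell types did not overlap for 82.8% of all genes on OP9-DLL1 (41.7% lower in cMoPs) and 78.4% on OP9 (38.5% lower). The log2 fold change, cMoPs over monocytes, was -1.64 ± 0.21 (SE) on OP9-DLL1, a level 3.12-fold lower in cMoPs (limma-trend, adjusted p = 0.000172). On OP9 it was -1.86 ± 0.21, 3.63-fold lower in cMoPs (limma-trend, adjusted p = 8.99e-05). Leaving out any 1 library gave log2 values between -1.73 and -1.55 on OP9-DLL1 and between -2.10 and -1.62 on OP9, all past the threshold.

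Cebpb shares 312 bases, 20.7% of its exon, with Tmem189 on the opposite strand (chr2:167689511-167689822). Reads from those bases cannot be assigned to either gene, because the kit used keeps no strand information. Tmem189 averaged 8.55 ± 0.97 CPM in cMoPs and 19.2 ± 1.65 CPM in monocytes on OP9-DLL1, while on OP9 it had 8.98 ± 1.40 CPM in cMoPs and 24.2 ± 3.9 CPM in monocytes (SD, n = 2 each). It passed in the same direction as Cebpb, at -1.17 ± 0.20 on OP9-DLL1 and -1.43 ± 0.20 on OP9 (log2 ± SE, limma-trend, adjusted p = 0.000841 and 0.00028). Its part in the Cebpb values was not tested.

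Cebpd encodes C/EBPδ, which is induced in inflammation. Its levels were 5.48 and 5.08 CPM in cMoPs and 12.0 and 10.6 CPM in monocytes on OP9-DLL1. The levels on OP9 were 6.17 and 6.72 CPM in cMoPs and 16.9 and 11.8 CPM in monocytes. As for Cebpb, no cMoP library reached the lowest monocyte library, and within a stroma most genes did not overlap between the cell types. Cebpd was 2.14-fold lower in cMoPs on OP9-DLL1 (log2 -1.10 ± 0.22 SE, limma-trend, adjusted p = 0.00224) and 2.19-fold lower on OP9 (log2 -1.13 ± 0.22, adjusted p = 0.00197). The call held without any 1 library, at adjusted p of at most 0.0222 on OP9-DLL1 and 0.0184 on OP9. Spidr shares 562 bases, 15% of the Cebpd exon bases, on the opposite strand, and its own log2 fold changes were -0.11 ± 0.18 on OP9-DLL1 and -0.17 ± 0.18 on OP9 (limma-trend, adjusted p = 0.625 and 0.456).

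Markers of other cell types differed between the groups as well. The neutrophil, macrophage, stromal, dendritic cell and megakaryocyte sums did so in the direction of Cebpb and Cebpd. The sum of 8 neutrophil genes in the table, of 10 listed, was 225 to 331 CPM on OP9-DLL1 and 202 to 304 CPM on OP9 in cMoPs, against 1164 to 1318 CPM and 1755 to 2104 CPM in monocytes on the same 2 stromas. Mmp8, the largest part of the sum in each monocyte library, was at 6.70 to 15.8 CPM in cMoP libraries and 534 to 1520 CPM in monocyte libraries. Lcn2 was at 94.7 to 153 CPM in cMoP libraries and 107 to 140 CPM in monocyte libraries. The ranges of Ltf, Camp and Ngp over the cMoP and monocyte libraries also overlapped. Among 15 stromal genes, 5 were in the table (Col1a1, Col1a2, Pdgfrb, Bgn and Cxcl12). Their sum was 1.012 to 1.35 CPM on OP9-DLL1 and 0.589 to 0.949 CPM on OP9 in cMoPs. In monocytes it was 3.65 to 12.97 CPM on OP9-DLL1 and 16.9 to 17.7 CPM on OP9. Col1a2 and Cxcl12 were at 0 in 1 cMoP library on OP9-DLL1. Pdgfrb went the other way on OP9, at 0.332 and 0.256 CPM in cMoPs against 0.0231 and 0.205 CPM in monocytes. The sum of 7 macrophage genes in the table, of 9 listed, was 93.3 to 132 CPM in cMoP libraries and 393 to 741 CPM in monocyte libraries.

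Other marker sums were higher in cMoPs, the direction of Cebpz, Cebpa and Cebpe. For T and NK cells, 2 of 6 listed genes were in the table, with a sum of 179 to 322 CPM in cMoP libraries against 1.25 to 2.21 CPM in monocyte libraries. Nearly all of the cMoP sum was Nkg7, while Lck, which encodes a T cell kinase, was at 0.33 to 1.71 CPM in cMoP libraries. For B cells, 1 of 6 listed genes was in the table, Cd79b, at 44.3 to 63.1 CPM in cMoP libraries against 10.8 to 18.0 CPM in monocyte libraries. The part of these cell types' RNA in the C/EBP values was not tested.

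Cebpz was the member with the most reads. Its product shares its CCAAT box name with the family but acts in ribosome assembly. It had 74.5 and 79.9 CPM in cMoPs and 39.1 and 38.5 CPM in monocytes on OP9-DLL1, while on OP9 it had 91.5 and 88.8 CPM in cMoPs and 36.0 and 41.5 CPM in monocytes. Every cMoP library exceeded every monocyte library, where most genes did not overlap between the cell types within a stroma. The fold was 1.99 on OP9-DLL1 (log2 0.99 ± 0.12 SE, limma-trend, adjusted p = 0.000144) and 2.33 on OP9 (log2 1.22 ± 0.12, adjusted p = 4.55e-05), and leaving out any 1 library kept it past the threshold. Cebpzos, a gene on the opposite strand that shares 171 of its bases with Cebpz (3.67% of the Cebpz exon bases), was at -0.05 ± 0.24 on OP9-DLL1 and -0.63 ± 0.24 on OP9 (limma-trend, adjusted p = 0.863 and 0.0495). The call of Cebpzos on OP9 was lost without any 1 library except monocytes on OP9 replicate 2 (adjusted p up to 0.317).

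Cebpa encodes C/EBPα, which drives myeloid commitment and restrains cell division. It had 11.2 and 12.4 CPM in cMoPs and 8.40 and 6.40 CPM in monocytes on OP9-DLL1, while on OP9 it had 14.1 and 12.4 CPM in cMoPs and 12.1 and 8.52 CPM in monocytes. The cMoP and monocyte libraries did not overlap on either stroma, a pattern that 82.8% of genes showed on OP9-DLL1 (41.1% higher and 41.7% lower in cMoPs) and 78.4% on OP9 (39.9% higher and 38.5% lower). On OP9-DLL1 Cebpa was 1.60-fold higher in cMoPs (log2 0.68 ± 0.23 SE, limma-trend, adjusted p = 0.0287). That call was lost without cMoPs on OP9-DLL1 replicate 1 (adjusted p = 0.0665) or replicate 2 (0.131), and without monocytes on OP9-DLL1 replicate 2 (0.176). On OP9 the log2 value was 0.38 ± 0.23 (adjusted p = 0.185), and 0.63 without monocytes on OP9 replicate 1 (adjusted p = 0.0466).

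Cebpe encodes C/EBPε, the factor of late granulocyte maturation. On OP9-DLL1 it had 18.4 and 13.5 CPM in cMoPs and 6.73 and 7.47 CPM in monocytes, and on OP9 12.7 and 10.2 CPM in cMoPs and 12.6 and 9.11 CPM in monocytes. The groups were apart on OP9-DLL1 and overlapped on OP9. The log2 fold change was 1.15 ± 0.23 on OP9-DLL1, 2.22-fold higher in cMoPs (limma-trend, adjusted p = 0.00248), and 0.09 ± 0.23 on OP9 (adjusted p = 0.768, 95% interval -0.44 to 0.61). The call on OP9-DLL1 held without any 1 library, at adjusted p of at most 0.026.

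Cebpg encodes C/EBPγ, a short family member without an activation domain that pairs with other bZIP proteins such as ATF4. It had 18.5 and 16.8 CPM in cMoPs and 19.7 and 19.5 CPM in monocytes on OP9-DLL1, while on OP9 it had 17.6 and 20.3 CPM in cMoPs and 18.4 and 22.3 CPM in monocytes. The monocyte libraries lay just above the cMoP libraries on OP9-DLL1, and the groups overlapped on OP9. Its group means spanned 1.15-fold, against 4.71-fold for Cebpb. The log2 fold changes, cMoPs over monocytes, were -0.15 ± 0.16 on OP9-DLL1 (95% interval -0.52 to 0.22) and -0.10 ± 0.16 on OP9 (-0.47 to 0.27), with limma-trend adjusted p of 0.447 and 0.625. Cebpa, its neighbour on chromosome 7, correlated with it at r = -0.57 over the 8 libraries, a description with no test since the libraries share groups.

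**Figure D2:**
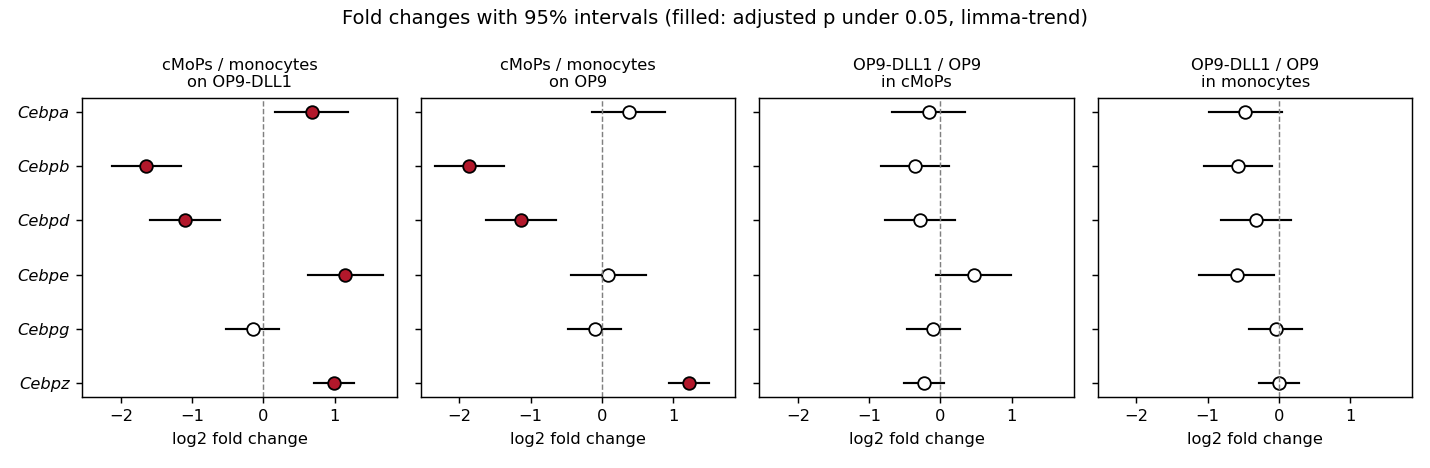
Log2 fold changes (x axis) of the 6 C/EBP genes (y axis) in 4 comparisons, with 95% intervals; filled points passed an adjusted p of 0.05. Filled points appear between the cell types, 5 on OP9-DLL1 and 3 on OP9, and none appears between OP9-DLL1 and OP9.

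Contact with DLL1 stroma was not followed by a change of any member that met the threshold. In cMoPs, 0 of 6 members passed between OP9-DLL1 and OP9 with limma-trend, where 0.77% of all genes did (0.464% higher and 0.307% lower), and 0 had an unadjusted p under 0.05. In monocytes 0 of 6 passed with limma-trend, where 6.39% of all genes did (3.36% higher and 3.03% lower), and 2 had an unadjusted p under 0.05. The authors' deposited table gave adjusted p values of at least 0.269 for the 6 genes in cMoPs and at least 0.192 in monocytes. Members' medians were -0.19 in cMoPs and -0.40 in monocytes (log2, OP9-DLL1 over OP9), against 0.01 over all genes in both.

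In monocytes, 5 of 6 members had values below 0. Libraries on OP9-DLL1 lay below those on OP9, with no overlap, for Cebpa, Cebpb and Cebpe, where 47.8% of all genes did not overlap (24.2% higher and 23.5% lower). Some marker sums of other cell types were also lower in monocytes on OP9-DLL1 than on OP9, and others were not. Both erythroid and megakaryocyte genes in the table, Pf4 and Ppbp (of 8 listed), summed to 12.7 to 22.2 CPM in monocytes on OP9-DLL1 against 113 to 195 CPM in monocytes on OP9. Macrophage genes summed to 393 to 409 CPM in monocytes on OP9-DLL1 against 494 to 741 CPM in monocytes on OP9, and the neutrophil and stromal sums given above were lower too. Within the stromal list Pdgfrb went the other way, at 2.89 and 4.23 CPM in monocytes on OP9-DLL1 against 0.0231 and 0.205 CPM on OP9. The B cell gene Cd79b was higher, at 12.9 and 18.0 CPM in monocytes on OP9-DLL1 against 12.1 and 10.8 CPM on OP9. Sums of the basophil, mast cell and eosinophil list, the dendritic cell list and the T and NK cell list overlapped. The part of all these cells' RNA in the C/EBP values was not tested. The 2 members with an unadjusted p under 0.05 were Cebpb at -0.57 ± 0.21 (limma-trend, adjusted p = 0.154) and Cebpe at -0.59 ± 0.23 (adjusted p = 0.177). Cebpa was at -0.47 ± 0.23 (adjusted p = 0.27) and Cebpd at -0.32 ± 0.22 (adjusted p = 0.441). The 95% intervals were -0.41 to 0.32 for Cebpg and -0.28 to 0.29 for Cebpz, the genes with the narrowest intervals.

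These values depended on which library of monocytes on OP9 was used. Replicate 1 of monocytes on OP9 was 1.42-fold replicate 2 for Cebpa, 1.40-fold for Cebpb, 1.44-fold for Cebpd and 1.38-fold for Cebpe, but 0.825-fold for Cebpg and 0.869-fold for Cebpz. Without replicate 2, Cebpb at -0.81 and Cebpe at -0.83 passed (limma-trend, adjusted p = 0.0319 and 0.0448). Without replicate 1, Cebpb was at -0.33 and Cebpe at -0.36, and neither passed. With both replicates in the fit, Cebpb at -0.57 and Cebpe at -0.59 lay between these values. Neither gene passed (limma-trend, adjusted p = 0.154 and 0.177).

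In cMoPs the OP9-DLL1 libraries lay above those on OP9 for Cebpe, and below them for Cebpb, Cebpd and Cebpz, where 46.7% of all genes did not overlap (25% higher and 21.7% lower). The log2 values, OP9-DLL1 over OP9, were 0.47 ± 0.23 for Cebpe, -0.35 ± 0.21 for Cebpb, -0.29 ± 0.22 for Cebpd, -0.22 ± 0.12 for Cebpz, -0.17 ± 0.23 for Cebpa and -0.10 ± 0.16 for Cebpg. Adjusted p ran from 0.595 for Cebpe upward (limma-trend). These coculture comparisons and the cell type comparisons share libraries, so their values are not independent of each other.

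Cebpe was above 0 in cMoPs and below 0 in monocytes, without overlap of the libraries in either cell type. Cebpz also lay on both sides of 0, at -0.22 in cMoPs and 0.01 in monocytes. For Cebpe the difference of the responses, cMoPs minus monocytes, was 1.06 ± 0.33 (log2 ± SE, 95% interval 0.32 to 1.81). Its limma-trend p was 0.0102 unadjusted and 0.36 adjusted. Among all genes 0.0523% passed this test (0.0299% positive and 0.0224% negative), and 0 of 6 members did. For the other members the difference lay between -0.23 ± 0.18 for Cebpz and 0.30 ± 0.32 for Cebpa. The higher Cebpa and Cebpe of cMoPs on OP9-DLL1 is therefore not shown to differ from the values on OP9.

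Levels of different genes were compared per kilobase of exon, as CPM per kb. In all 4 cMoP libraries Cebpz was highest and Cebpe next, and in 3 of 4 monocyte libraries Cebpb was highest. The per-length sum of the 5 bZIP genes was 24.6 ± 3.0 CPM per kb in cMoPs on OP9-DLL1 and 22.8 ± 1.5 in cMoPs on OP9, against 23.5 ± 0.9 in monocytes on OP9-DLL1 and 32.8 ± 6.4 in monocytes on OP9 (SD, n = 2 each). The makeup of that sum differed more than its size. Cebpe gave 52.0 ± 5.0% of it in cMoPs on OP9-DLL1 and 40.4 ± 3.4% in cMoPs on OP9, against 24.4 ± 2.7% in monocytes on OP9-DLL1 and 26.5 ± 0.8% in monocytes on OP9. Cebpb gave 11.03 ± 0.36% and 15.2 ± 0.5% in cMoPs on OP9-DLL1 and OP9, against 36.0 ± 0.8% and 38.6 ± 1.6% in monocytes on OP9-DLL1 and OP9.

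The ratio of Cebpa to Cebpb per kilobase turned over between the cell types. It was 1.47 and 1.85 in cMoPs on OP9-DLL1 and 1.503 and 1.39 in cMoPs on OP9, against 0.362 and 0.300 in monocytes on OP9-DLL1 and 0.309 and 0.304 in monocytes on OP9. Every cMoP library had more Cebpa than Cebpb by this measure, and every monocyte library had less. The 2 monocyte libraries on OP9, which differed in each gene by about 1.4-fold, had nearly the same ratio. The place of Cebpd depends on the annotation: with the 2260 bases RefSeq gives in place of the 3746 exon bases of GENCODE M21, its level in monocytes on OP9 was 6.35 in place of 3.83 CPM per kb.

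**Figure D3:**
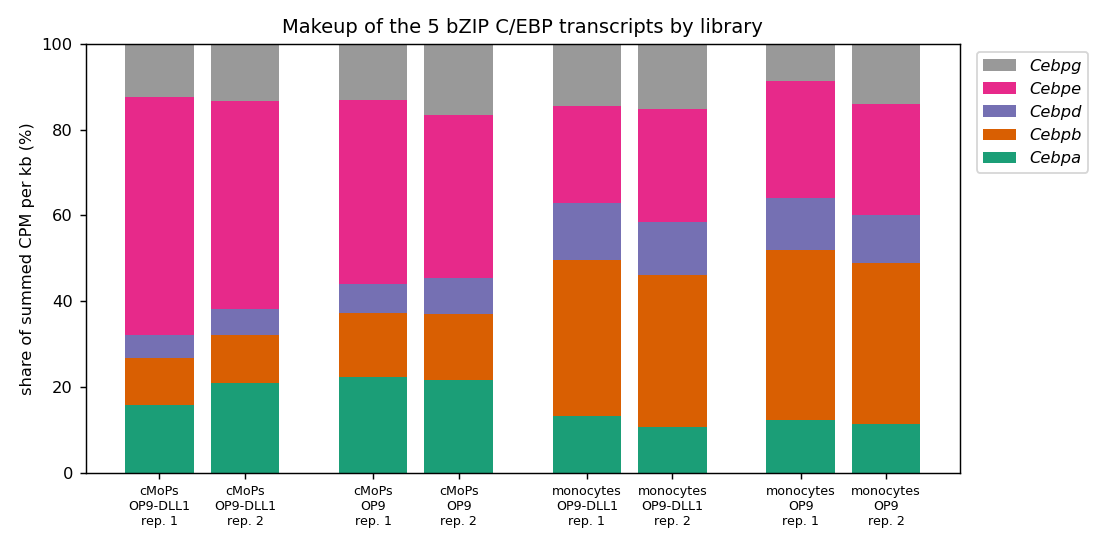
Share of each bZIP C/EBP gene in the summed CPM per kb of the 5 genes (y axis, percent) in each library (x axis). The Cebpb share was 10.8 to 15.5% in cMoP libraries and 35.4 to 39.7% in monocyte libraries, and the Cebpe share was 38.0 to 55.5% against 22.5 to 27.1%.

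Members were also compared by pattern, as the root-mean-square difference of centred log2 CPM over the 8 libraries, where a small value means a like pattern. Cebpb and Cebpd were correlated at r = 0.99 but differed in size of change (0.336). Their root-mean-square distances from their own means were 0.918 for Cebpb and 0.596 for Cebpd. Among the members, Cebpa was nearest to Cebpe (0.309, r = 0.73). Among 8343 other genes at a mean of 5 CPM or more, Cebpb lay nearest to Cstb (0.111), Klf6 (0.1198) and Ctnna1 (0.125). Nearest to Cebpd were Akap8l (0.0950), Cox17 (0.102) and Cklf (0.107). Cebpz was nearest to Rpl36a-ps2 (0.0544) and Rpl31 (0.0545), a ribosomal protein pseudogene and gene, and to Polr1d (0.0719), a shared subunit of RNA polymerases I and III. For Cebpa the nearest were Rpl15-ps3 (0.107), Kpna4 (0.110) and Tmem199 (0.117), and for Cebpe they were Pomt1 (0.171), Hspa5 (0.176) and Timm22 (0.177). Cebpg, nearly level throughout, was nearest to Acot9 (0.0507), mt-Nd6 (0.0535) and Mob4 (0.0605).

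Genes around the family were read from lists. Among 30 bZIP factors that can pair with C/EBP proteins or are related to them, 2 were higher and 16 lower in cMoPs than in monocytes on OP9-DLL1, and 3 were higher and 17 lower on OP9 (limma-trend, adjusted p under 0.05); the 3 were 1 without cMoPs on OP9 replicate 2. Of all genes, 28.2% were higher and 29.2% lower on OP9-DLL1, and 28.8% higher and 27.7% lower on OP9. The list's median log2 fold changes were -1.12 and -0.92, against -0.01 and 0.01 over all genes. Fos, an AP-1 subunit, was at -2.82 ± 0.15 on OP9-DLL1 and -3.51 ± 0.15 on OP9. Atf4, the partner of Cebpg in the amino acid response, went the other way, at 226 ± 15 CPM in cMoPs and 105 ± 4 CPM in monocytes on OP9-DLL1 (log2 1.10 ± 0.20, limma-trend, adjusted p = 0.00138) and 244 ± 19 CPM in cMoPs and 113 ± 39 CPM in monocytes on OP9 (1.16 ± 0.20, adjusted p = 0.00111). Ddit3, a dimer partner that blocks C/EBP binding to its usual sites, was at -0.35 ± 0.20 on OP9-DLL1 (adjusted p = 0.169) and -0.64 ± 0.20 on OP9 (adjusted p = 0.0227), a call lost without monocytes on OP9 replicate 2 or either cMoP library on OP9 (adjusted p up to 0.0944).

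Among the same 30 factors, 2 were higher and 3 lower on OP9-DLL1 than on OP9 in monocytes, and 1, Maf, was lower in cMoPs, a call lost without either cMoP library on OP9 or cMoPs on OP9-DLL1 replicate 1 (limma-trend, adjusted p up to 0.113). Of all genes, 3.36% were higher and 3.03% lower in monocytes, and 0.464% higher and 0.307% lower in cMoPs. Maf, a large bZIP factor of macrophages, had 19.9 ± 4.2 CPM in monocytes on OP9-DLL1, against 52.4 ± 0.4 CPM in monocytes on OP9 (log2 -1.41 ± 0.28, limma-trend, adjusted p = 0.0213). That call was lost without either monocyte library on OP9-DLL1, at adjusted p up to 0.179. Without monocytes on OP9-DLL1 replicate 2, 0 of the 30 factors were lower and 0 were higher in monocytes, and without replicate 1 of that group 0 were higher.

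C/EBPα protein is removed by the Tribbles pseudokinases with the ubiquitin ligase COP1. Of 8 listed regulators of this kind 6 were tested, and on OP9-DLL1 1 was higher and 2 were lower in cMoPs than in monocytes, against 28.2% and 29.2% of all genes. For the OP9 counts given below, the shares of all genes were 28.8% higher and 27.7% lower. Trib1 averaged 1.58 ± 0.54 CPM in cMoPs and 21.3 ± 0.7 CPM in monocytes on OP9-DLL1, while on OP9 it had 4.71 ± 0.87 CPM in cMoPs and 31.8 ± 0.4 CPM in monocytes. The log2 fold changes were -3.79 ± 0.26 on OP9-DLL1 and -2.76 ± 0.26 on OP9 (limma-trend, adjusted p = 3.18e-06 and 2.55e-05). Det1, a part of the COP1 ligase complex, was higher in cMoPs at 1.05 ± 0.19 on OP9-DLL1 and 1.16 ± 0.19 on OP9, and Cop1 itself was lower at -0.63 ± 0.18 and -0.67 ± 0.18. The Cop1 call on OP9-DLL1 was lost without either monocyte library or cMoP replicate 2 on that stroma (limma-trend, adjusted p up to 0.116), and the call on OP9 without monocytes on OP9 replicate 2 or either cMoP library on OP9 (up to 0.067). On OP9, 1 was higher and 3 were lower, which fell to 1 lower without monocytes on OP9 replicate 2 or either cMoP library on OP9. Trib1 was also lower on OP9-DLL1 than on OP9 in cMoPs (-1.60 ± 0.26, adjusted p = 0.0259), a call lost without either monocyte library on OP9-DLL1, either cMoP library on OP9 or cMoPs on OP9-DLL1 replicate 2 (adjusted p up to 0.237).

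Target genes were read in 4 lists, the last of them amino acid response targets of ATF4 and its C/EBP partners and the others known targets of the family. Among 15 receptor and primary granule genes, 7 were higher and 8 lower in cMoPs on either stroma, against 28.2% and 29.2% of all genes on OP9-DLL1 and 28.8% and 27.7% on OP9. Elane, the neutrophil elastase gene, averaged 10894 ± 1455 CPM in cMoPs and 143 ± 11 CPM in monocytes on OP9-DLL1, with log2 fold changes of 6.25 ± 0.18 there and 6.13 ± 0.18 on OP9 (limma-trend, adjusted p = 1.03e-07 in both). Lyz2, the lysozyme gene, was lower in cMoPs, at -3.07 ± 0.16 on OP9-DLL1 and -3.33 ± 0.16 on OP9. Of 13 tested genes of secondary and tertiary granules, products of late granulocyte maturation, 0 were higher and 8 lower in cMoPs on OP9-DLL1, and 0 were higher and 10 lower on OP9, a count of 7 without monocytes on OP9 replicate 1 or 2 or cMoPs on OP9 replicate 1. None of the 13 was higher on either stroma at an unadjusted p under 0.05 (limma-trend). Mmp8, a granule collagenase, was at -6.14 ± 0.36 and -6.50 ± 0.36, and it is also 1 of the neutrophil markers given above. Cebpe itself was not lower in cMoPs on either stroma.

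Of 15 tested inflammatory and acute phase genes, 14 were lower in cMoPs on OP9-DLL1, with a median log2 fold change of -3.39, and 14 were lower and 1 higher on OP9, with a median of -3.16. Lower genes made up 29.2% of all genes on OP9-DLL1 and 27.7% on OP9. Il1b, an inflammatory cytokine gene, was at -8.62 ± 0.64 on OP9-DLL1 and -8.46 ± 0.64 on OP9. Clec4e, a receptor for microbial and damage signals, was at -2.06 ± 0.13 and -1.95 ± 0.13. The gene that was higher on OP9 lost its call without any 1 of the 4 monocyte libraries or cMoPs on OP9 replicate 2. Of 22 tested genes of the amino acid response, 14 were higher and 5 lower in cMoPs on OP9-DLL1, and 15 were higher and 4 lower on OP9. Higher genes made up 28.2% of all genes on OP9-DLL1 and 28.8% on OP9. Phgdh, the entry enzyme of serine synthesis, was at 5.84 ± 0.39 and 5.74 ± 0.39, while Slc7a11, the cystine transporter gene, was lower at -2.44 ± 0.20 and -3.27 ± 0.20.

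Between OP9-DLL1 and OP9 the target genes moved in small numbers. In monocytes, 3 receptor and primary granule genes were higher on OP9-DLL1 and 1 was lower, against 3.36% and 3.03% of all genes. Csf1r, the receptor gene for the monocyte growth factor, had 719 ± 34 CPM in monocytes on OP9-DLL1, against 428 ± 47 CPM in monocytes on OP9 (log2 0.75 ± 0.12, limma-trend, adjusted p = 0.0073), and Csf3r, the receptor gene for the granulocyte growth factor, had 229 ± 12 and 115 ± 21 CPM in the same 2 groups (1.004 ± 0.16, adjusted p = 0.00779). Ms4a3, a gene of granulocyte and monocyte progenitors, had 14.9 ± 1.7 CPM in monocytes on OP9-DLL1, against 3.27 ± 1.32 CPM in monocytes on OP9 (2.24 ± 0.24, adjusted p = 0.00128). The count of higher genes was 1 without monocytes on OP9-DLL1 replicate 2 and 8 without monocytes on OP9 replicate 2. The Csf1r call was lost without either monocyte library on OP9-DLL1 and the Csf3r call without replicate 2 of that group, with adjusted p of 0.0655 and 0.0788 at most. In cMoPs 0 of these 15 genes passed with limma-trend, 5 had an unadjusted p under 0.05 (3 higher, 2 lower), and 2 were higher without either monocyte library on OP9.

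Of the inflammatory genes, 1 was higher and 4 were lower on OP9-DLL1 in monocytes, and 2 were lower in cMoPs. Of all genes, 3.36% were higher and 3.03% lower in monocytes, and 0.307% were lower in cMoPs. Il1rn, which encodes the blocker of the interleukin 1 receptor, had 131 ± 7 CPM in monocytes on OP9-DLL1, against 47.3 ± 1.1 CPM in monocytes on OP9 (log2 1.47 ± 0.21, limma-trend, adjusted p = 0.00519). Ccl4, a chemokine gene, had 1.76 ± 0.70 CPM in cMoPs on OP9-DLL1 and 11.1 ± 2.0 CPM in cMoPs on OP9 (-2.70 ± 0.28, adjusted p = 0.0027). Without monocytes on OP9-DLL1 replicate 2, 0 inflammatory genes were lower in monocytes. In cMoPs the count of lower genes was 1 without any 1 of the 4 cMoP libraries and 4 without either monocyte library on OP9. The secondary and tertiary granule list had 0 calls in either cell type with limma-trend, and 1 lower gene in monocytes and 1 higher gene in cMoPs at an unadjusted p under 0.05. Of the 22 tested genes of the amino acid list, 2 were lower in monocytes and 1 was higher in cMoPs. The shares of all genes were 3.03% lower in monocytes and 0.464% higher in cMoPs. Leaving out 1 library gave 1 to 4 lower and 0 to 3 higher genes in monocytes, with 4 lower without either monocyte library on OP9, and 0 to 2 higher genes in cMoPs, with 0 without any 1 of the 4 cMoP libraries.

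**Figure D4:**
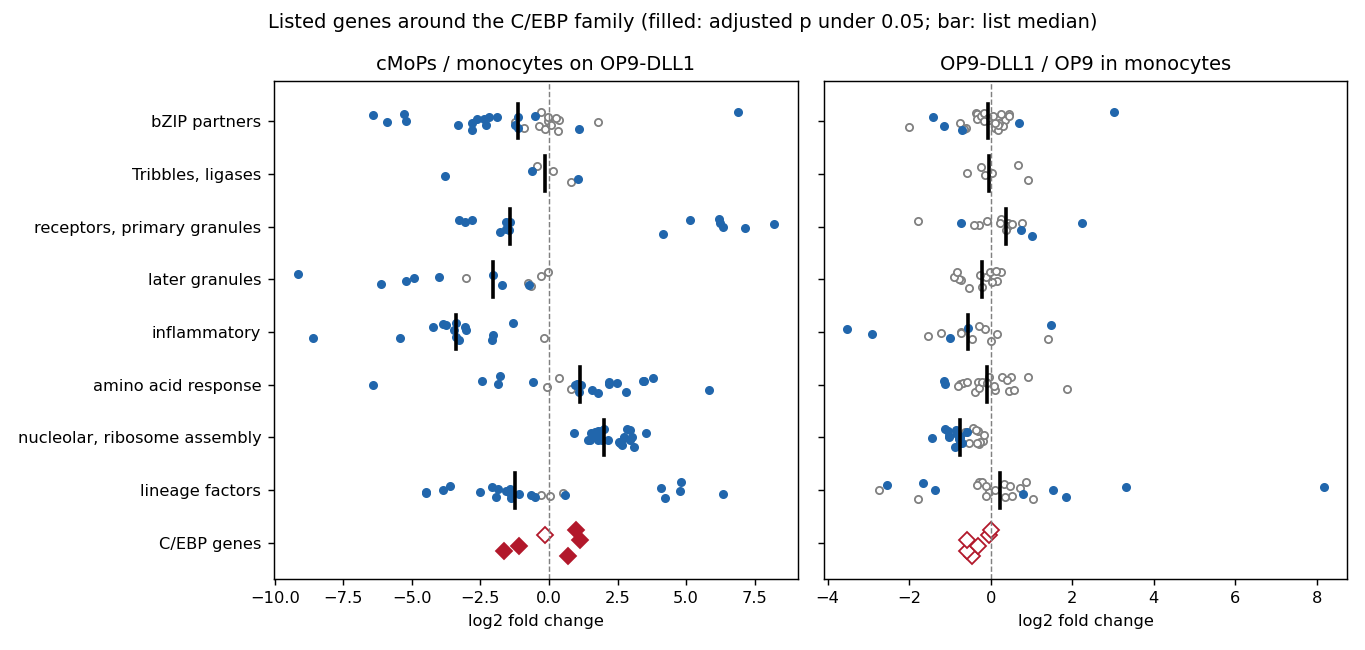
Log2 fold changes (x axis) of the tested genes of 8 lists around the C/EBP family and of the 6 C/EBP genes (rows), for cMoPs over monocytes on OP9-DLL1 (left) and OP9-DLL1 over OP9 in monocytes (right). Points are genes, filled where the adjusted p was under 0.05, bars are list medians and diamonds the C/EBP genes; nucleolar genes lie at a median of 2.01 on the left and -0.75 on the right, while Cebpz is at 0.99 and 0.01.

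The nucleolar genes among which Cebpz acts were higher in cMoPs without exception in the list: 25 of 25 on either stroma, also without any 1 library, where 28.2% of all genes were higher on OP9-DLL1 and 28.8% on OP9. Their median log2 fold changes were 2.01 on OP9-DLL1 and 1.70 on OP9, larger than the 0.99 and 1.22 of Cebpz. Nop56, a core protein of the particles that modify ribosomal RNA, was at 3.09 ± 0.12 on OP9-DLL1 and 2.41 ± 0.12 on OP9. In monocytes 15 of the 25 were lower on OP9-DLL1 than on OP9 and 0 were higher, against 3.03% and 3.36% of all genes, with a list median of -0.75, while Cebpz had a value of 0.01 ± 0.12. Gnl3, a nucleolar GTPase gene, had 17.6 ± 0.8 CPM in monocytes on OP9-DLL1, against 48.2 ± 9.7 CPM in monocytes on OP9 (log2 -1.44 ± 0.15, limma-trend, adjusted p = 0.00119). Noc2l and Noc3l, related to the yeast partners of the Cebpz homologue and named here after their values were seen, were at -0.83 and -1.02 (limma-trend, adjusted p = 0.0117 and 0.0182). The count of 15 was 2 without monocytes on OP9-DLL1 replicate 2, 20 without monocytes on OP9 replicate 1 and 18 without replicate 2 of that group. In cMoPs 0 of the 25 passed between OP9-DLL1 and OP9 with limma-trend, 6 were lower at an unadjusted p under 0.05, and 3 were lower without either monocyte library on OP9.

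Of 24 lineage factors of monocytes and granulocytes, 6 were higher and 15 lower in cMoPs on OP9-DLL1, and 6 were higher and 11 lower on OP9, with shares of all genes of 28.2% and 29.2% on OP9-DLL1 and 28.8% and 27.7% on OP9. Spi1, which encodes the factor PU.1, averaged 36.3 ± 2.9 CPM in cMoPs and 108 ± 7 CPM in monocytes on OP9-DLL1 (log2 -1.58 ± 0.13) and 31.8 ± 2.0 CPM in cMoPs and 76.1 ± 7.0 CPM in monocytes on OP9 (-1.26 ± 0.13). Nr4a1, a factor needed for Ly6C- monocytes, was at -3.60 ± 0.41 on OP9-DLL1 and -4.69 ± 0.41 on OP9, the direction of Cebpb. Myc was higher in cMoPs at 4.83 ± 0.18 and 3.48 ± 0.18. On OP9-DLL1 5 of these factors were higher and 3 lower than on OP9 in monocytes, among them Runx3 at 1.85 ± 0.22, Myc at -1.65 ± 0.18 (limma-trend, adjusted p = 0.00209 and 0.0014) and Hes1 (adjusted p = 0.000243; levels above), and 1, Hes1, was higher in cMoPs. Of all genes, 3.36% were higher and 3.03% lower in monocytes, and 0.464% were higher in cMoPs. Without monocytes on OP9-DLL1 replicate 2 the count of higher factors in monocytes was 2, and leaving out 1 library gave up to 5 lower factors there. Without either monocyte library on OP9, 2 factors were higher and 2 lower in cMoPs. Across all 8 lists, 0 genes passed the test of the difference between the cell types' responses with limma-trend. At an unadjusted p under 0.05, 15 nucleolar genes had a positive difference, and 9 of that list passed without monocytes on OP9 replicate 2.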

How the data were processed

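Per the labels' protocols, 10 ng of RNA went into each SMARTer Ultra Low library, read from both ends at 150 bases. STAR 2.7.9a, featureCounts 2.0.3, Salmon 1.5.2, edgeR and limma are named in the submitters' processing notes, with build mm10; the sources used here do not give their order. The authors deposited log2 CPM values of the voom form (0.5 reads added); reads came out whole for 100% of values (tolerance 0.001) and gave the depth. The authors' deposited fold changes and p-values (also on a log2 scale, with a signed linear fold as a score) were turned to OP9-DLL1 over OP9 where used. Of 13430 entries 42 repeated an identifier.

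Tests were limma-trend (limma 3.58.1, R 4.3.3), two-sided, with 1 mean per group over 8 libraries (4 residual degrees of freedom), on the 13374 genes that reached 1 CPM in 2 or more libraries (14 left out), with Benjamini-Hochberg adjustment over all of them. The fit was also run on simulated counts with the same spread in all groups, unlike these data, and its outcome is not given here. In each group the replicates were further apart than counting noise. Members and lists were chosen with earlier results of these data known. Genes named from a list were drawn from its up to 4 lowest adjusted p per comparison, or 2 where none passed, not all of which are printed. Atf4, Ddit3, Trib1, Spi1, Nr4a1 and Hes1 could be named besides, for their ties to the family or to Notch. Tmem189, Spidr and Cebpzos were named for bases shared with a member, and values of a named gene are given on both stromas; 3 genes of like pattern were taken per member, leaving out predicted gene models. Some genes stand in 2 lists. Alternatives were other filters, scalings, weights and pseudocounts, a replicate block and leaving out each library. One gene that this rule names is not reported here.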

Additional observations from a re-analysis of the deposited data

Results flagged for a closer look

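Cebpe libraries on OP9-DLL1 lay above those on OP9 in cMoPs and below them in monocytes. Neither response passed (limma-trend, adjusted p = 0.595 in cMoPs and 0.177 in monocytes), and 46.7% of all genes did not overlap in cMoPs and 47.8% in monocytes. The difference of the log2 responses, cMoPs minus monocytes, was 1.06 ± 0.33 (SE), and it did not pass after adjustment (limma-trend, adjusted p = 0.36, and 0.038 to 0.717 with 1 library left out). The lowest of these came without monocytes on OP9 replicate 2.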

How the results depend on the processing

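Of 534 values of a member under 18 alternative settings, 508 kept their direction and side of the threshold, 3 lost a call (Cebpa on OP9-DLL1, above), 4 gained one without a monocyte library on OP9, and 19 changed sign. All 19 were values that did not pass. Cebpz in monocytes was at -0.0737 with median centring, -0.0524 with quantile normalization, and between -0.0953 and 0.1075 with 1 library left out. With 1 library left out, Cebpg ran from -0.1837 to 0.0938 in monocytes, from -0.1986 to 0.004 in cMoPs and from -0.2383 to 0.0392 between the cell types on OP9, where Cebpe ran from -0.1455 to 0.3198. For the difference of responses, Cebpb ran from -0.0234 to 0.4594, Cebpd from -0.2261 to 0.2993 and Cebpg from -0.1911 to 0.0864, with Cebpg at 0.0287 under median centring. The cause was not tested.

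Genes passing in monocytes were 855, and 248 without the trend, 413 with library weights, 306 from the 4 libraries alone and 164 to 2488 with 1 library left out. In cMoPs they were 103, and 37, 304 and 315 under the same settings, 64 with voom weights and 31 to 308 with 1 library left out. For the difference they were 7, and 1 without the trend, 24 on log2(CPM + 1) and 0 to 1124 with 1 library left out. Members passing ran from 0 to 2 in monocytes and 0 to 1 for the difference. Same-numbered samples of different groups correlated at 0.0227 to 0.0891 in their deviations from the group means. Correlations over all tested genes cannot settle if samples of the same number were prepared together. A replicate block gave 156 genes in cMoPs and 11 for the difference, and changed no member's call. List counts without single monocyte libraries on OP9, and the RefSeq length of Cebpd, were chosen after seeing the data.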
